A study of Mus musculus with 9 samples.

Results

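A set of 10 genes of necroptosis, pyroptosis and death receptor signalling were followed across the livers of this series. The genes are Ripk1, Ripk3, Mlkl, Gsdmd, Casp1, Casp4, Casp8, Casp12, Pycard and Fas. They were taken by symbol from the 24411 genes of the deposited count table, and all 10 were found. Poly(A) RNA of 9 whole livers from mice at 3 months of age on the C57BL/6 background was sequenced, with 3 livers in each of 3 groups. All 3 groups carried floxed Atg7 alleles on both copies. The group called cont. (Atg7flox/flox) had no Cre recombinase. The Atg7-KO group (Atg7flox/flox;Alb-Cre) also carried Cre under the albumin promoter, which removes floxed sequence in hepatocytes. Whether it was also removed in other cells of the liver cannot be seen from these data. The remaining group, S351A (Atg7flox/flox;Alb-Cre;p62S351A/p62S351A), carried in addition a serine-to-alanine change on both copies of p62, the autophagy adaptor encoded by Sqstm1, which weakens its hold on KEAP1. The comparisons ask which of these genes differed when hepatocytes lost Atg7, an enzyme that autophagosome formation depends on, and whether they differed again when the p62 allele was exchanged.

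The genes belong to 3 connected ways of dying. FAS is a death receptor that, once bound by its ligand, recruits the adaptor FADD and caspase-8, which starts apoptosis. Caspase-8 also cleaves RIPK1 and RIPK3, the kinases that otherwise pass the signal to MLKL, the protein that permeabilises the plasma membrane in necroptosis. In pyroptosis, inflammasomes built on the adaptor ASC, encoded by Pycard, activate caspase-1, while the product of mouse Casp4 is activated by bacterial lipopolysaccharide inside the cell. Both cleave gasdermin D, encoded by Gsdmd, whose freed fragment forms pores. Caspase-12, of the same inflammatory caspase family, is associated with the endoplasmic reticulum. In healthy liver, Kupffer cells and other nonparenchymal cells carry much of the inflammasome machinery, and hepatocytes are known to be sensitive to FAS.

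Library totals ranged from 713835 to 15426566 estimated counts, and each S351A library (at most 792366) was smaller than every library of the other groups, so that depth and the p62 allele cannot be told apart. A gene with 3 counts, taken as the floor, stood at 0.269 to 3.73 CPM (counts relative to the library total) depending on the library. Levels below are CPM after TMM scaling, a correction for a few very abundant genes, with factors of 0.727 to 0.843 in cont. and 1.07 to 1.18 in the other groups. By Xist and Y-linked genes, cont. held 1 female, and Atg7-KO and S351A 2 females each. Atg7 itself, the deleted gene, lay at 45.1, 57.8 and 42.4 CPM in cont., at 30.2, 28 and 28.4 in Atg7-KO and at 21.8, 24.8 and 22.2 in S351A. It was lower in both groups with Cre (log2 fold change -0.74, adjusted p = 0.00758, and -1.07, adjusted p = 0.00319). A gene total cannot show which exons were lost. In whole liver, fewer cells of a type and less RNA per cell cannot be told apart.

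Of the 10 genes, 5 rose in Atg7-KO livers against cont. and none fell. They were Mlkl, Casp1, Casp4, Casp12 and Pycard. The same 5 genes rose in S351A livers against cont., again with none lower. A gene was called when its p from edgeR's quasi-likelihood test, adjusted over 11199 genes, fell below 0.05 and the fold change exceeded 1.5. Among all genes tested, 19.9% were called higher in Atg7-KO, 15.6% in S351A and 14.1% in both. At an unadjusted p under 0.05, 6 of the 10 differed from cont. in Atg7-KO (the same 5 and Ripk3), where 47.5% of all genes did, and 5 in S351A, where 41% did. The median log2 fold change of the 10 genes was 1.42 in Atg7-KO and 1.42 in S351A, against -0.03 over all genes in either comparison. The genes were chosen with earlier results of these data known, which can by itself set them apart from all genes. Both comparisons use the same cont. livers, so they do not support each other independently. Casp8, Fas, Ripk1 and Gsdmd did not pass the test in either comparison, nor did Ripk3, although its 6 mutant libraries all lay above every cont. library. All 10 passed the filter on low counts, but Casp4, Casp12, Pycard and Ripk3 had no cont. library at its cutoff of 5.14 unscaled CPM and were kept through the mutant livers.

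**Figure D1:**
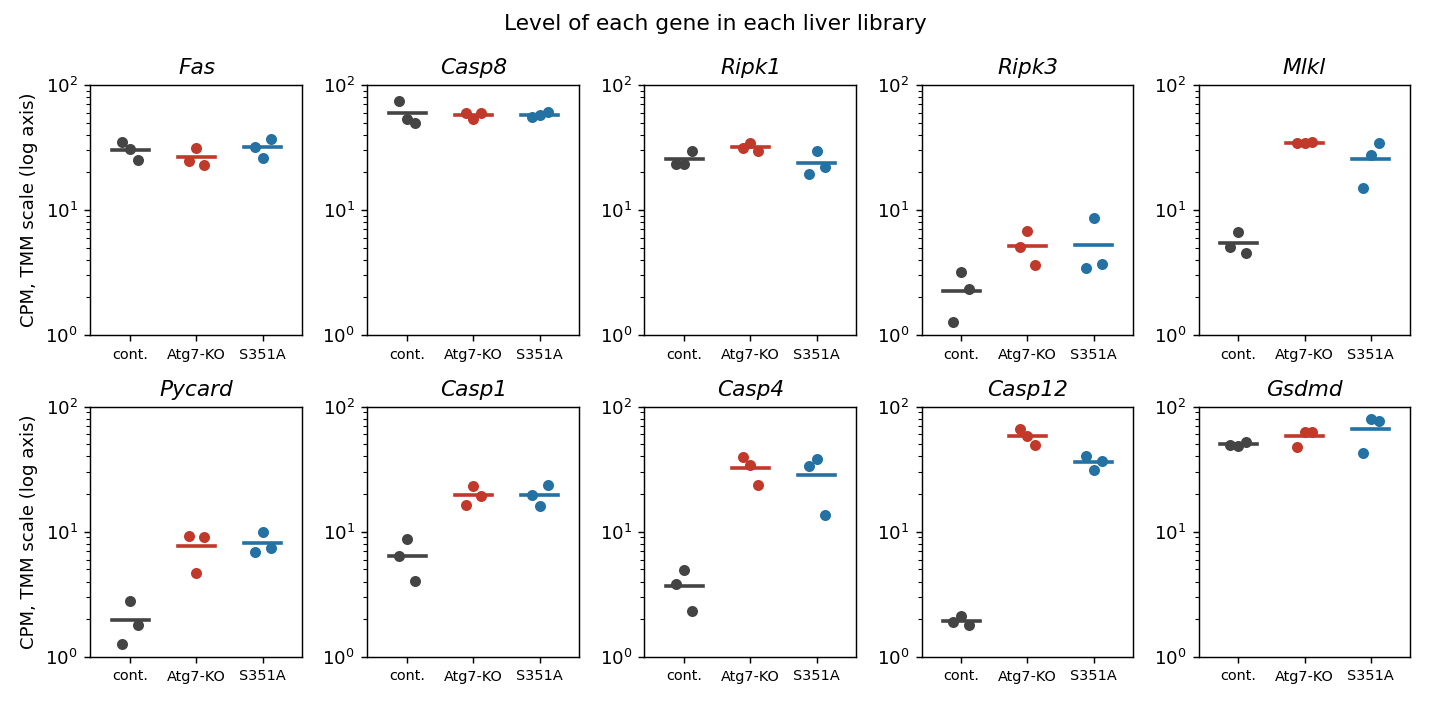
CPM after TMM scaling (log axis) of each gene in each of the 9 libraries, with 1 point per liver and a bar at the group mean. Mlkl, Pycard, Casp1, Casp4 and Casp12 have all Atg7-KO and S351A points above all cont. points, while the points of Fas and Casp8 mix; Casp12 lies at 1.79 to 2.11 CPM in cont. and reaches 49.4 to 66.1 CPM in Atg7-KO.

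At the level of the receptor, Fas (chromosome 19 of mm10, 34290666 to 34327772, + strand) changed little. It stood at 35.0, 30.6 and 25.2 CPM in cont., 24.8, 31.2 and 22.9 in Atg7-KO and 32.2, 26.1 and 37.0 in S351A. The 3 groups overlapped. Its log2 fold change was -0.18 in Atg7-KO (SE 0.21, 95% interval -0.64 to 0.29, adjusted p = 0.552) and 0.09 in S351A (SE 0.23, interval -0.42 to 0.61, adjusted p = 0.802), so a doubling lies outside both intervals. Casp8 (chromosome 1, 58795374 to 58847503, + strand), the initiator caspase shared by apoptosis and the checkpoint on necroptosis, was one of the steadiest of the 10. It measured 75.01, 53.9 and 49.3 CPM in cont., 59.6, 53.8 and 60.0 in Atg7-KO and 55.1, 57.1 and 60.5 in S351A. Every mutant library lay within the range of the cont. libraries. The log2 fold changes were -0.02 (SE 0.20, interval -0.45 to 0.40, adjusted p = 0.945) and -0.03 (SE 0.21, interval -0.48 to 0.42, adjusted p = 0.937).

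Of the necroptosis core, the kinases and the membrane effector behaved differently from each other. Ripk1 (chromosome 13, 34002363 to 34037147, + strand), the kinase that joins receptor complexes, held 23.5, 23.2 and 29.6 CPM in cont., 31.6, 34.5 and 29.7 in Atg7-KO and 19.5, 29.8 and 22.2 in S351A. The Atg7-KO livers sat just above cont. without passing the test (log2 fold change 0.31, SE 0.20, interval -0.13 to 0.75, adjusted p = 0.251), and the S351A livers overlapped with cont. (-0.12, interval -0.62 to 0.39, adjusted p = 0.748). Ripk1 overlaps Serpinb6a on the other strand over 432 bases, and 7.27% of its 75-base windows also occur in another gene, mostly the pseudogene Gm17084, so its counts could include reads of either.

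Ripk3 (chromosome 14, 55784995 to 55788865, - strand), which phosphorylates MLKL, was near the limit of detection. Its counts were 2, 9 and 26 in cont., 22, 19 and 8 in Atg7-KO and 3, 7 and 3 in S351A, or 1.27, 3.17 and 2.33 CPM, 5.10, 6.82 and 3.66 CPM, and 3.45, 8.69 and 3.70 CPM. All 6 mutant libraries lay above the 3 cont. libraries, a separation that 26.7% of all genes showed in Atg7-KO and 19.6% in S351A. The log2 fold change was 1.13 in both comparisons, with an interval of 0.17 to 2.10 in Atg7-KO (SE 0.44, adjusted p = 0.06) and of -0.06 to 2.33 in S351A (SE 0.55, adjusted p = 0.141). At 3 counts, the S351A libraries 1 and 3 were at the floor, so no change was detectable there at this depth. The first cont. library, at 2 counts, was below it. In S351A, leaving out 1 library in turn gave log2 fold changes of 0.56 to 1.36. In Atg7-KO the gene was called by limma-voom (adjusted p = 0.0289) and when the 6 compared libraries were fitted alone (adjusted p = 0.046), and its adjusted p lay between 0.00774 and 0.233 over all 18 alternatives that tested it.

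Mlkl (chromosome 8, 111311797 to 111338177, - strand), the membrane effector of necroptosis, was clearly higher. Its counts were 8, 19 and 51 in cont., 148, 95 and 77 in Atg7-KO and 13, 22 and 28 in S351A. Scaled, these were 5.09, 6.69 and 4.57 CPM in cont., 34.3, 34.1 and 35.2 in Atg7-KO and 14.9, 27.3 and 34.6 in S351A. The Atg7-KO livers were nearly identical to each other and far above cont., and the S351A livers were spread out, the first being lowest, but none came down to cont. levels. The level rose 6.49-fold in Atg7-KO (log2 fold change 2.70, SE 0.29, interval 2.08 to 3.32, adjusted p = 2.82e-05) and 4.79-fold in S351A (2.26, SE 0.32, interval 1.57 to 2.95, adjusted p = 0.000398).

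The 3 inflammatory caspases lie side by side on chromosome 9 of mm10, all on the + strand, with Casp1 from 5298517 to 5307265, Casp4 from 5308828 to 5336783 and Casp12 from 5345430 to 5373032. Only 1562 bases part Casp1 from Casp4 and 8646 bases part Casp4 from Casp12. None of their 75-base windows occurred in another gene, so reads could be told apart between them. The windows from 250 bases before to 50 bases after their RefSeq starts (GRCm38.p6, the assembly of mm10) are shown because these neighbours rose together. Capitals mark matches, on either strand, to the interferon-stimulated response element (GAAA, any 2 bases, GAAA), TTCNNNGAA (STAT-bound GAS element), TGACNNNGC (antioxidant response element, bound by NRF2), the NF-kB element (GGG, any 5 bases, CC), TGACGTGG (an unfolded protein response element) or TGATGNAA (an amino acid response element bound by ATF4 dimers).
Casp1, chr9:5298267-5298566, + strand: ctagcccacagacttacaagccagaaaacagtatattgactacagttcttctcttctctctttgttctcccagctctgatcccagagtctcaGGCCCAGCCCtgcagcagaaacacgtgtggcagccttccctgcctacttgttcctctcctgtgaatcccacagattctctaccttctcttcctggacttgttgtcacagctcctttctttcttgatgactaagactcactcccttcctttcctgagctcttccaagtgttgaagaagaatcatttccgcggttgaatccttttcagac
Casp4, chr9:5308599-5308898, + strand: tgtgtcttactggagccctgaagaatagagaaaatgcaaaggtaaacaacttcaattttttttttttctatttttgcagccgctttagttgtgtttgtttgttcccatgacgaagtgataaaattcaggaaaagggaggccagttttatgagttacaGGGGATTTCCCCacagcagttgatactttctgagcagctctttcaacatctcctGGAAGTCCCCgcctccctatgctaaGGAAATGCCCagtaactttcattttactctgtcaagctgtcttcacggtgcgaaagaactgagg
Casp12, chr9:5345226-5345525, + strand: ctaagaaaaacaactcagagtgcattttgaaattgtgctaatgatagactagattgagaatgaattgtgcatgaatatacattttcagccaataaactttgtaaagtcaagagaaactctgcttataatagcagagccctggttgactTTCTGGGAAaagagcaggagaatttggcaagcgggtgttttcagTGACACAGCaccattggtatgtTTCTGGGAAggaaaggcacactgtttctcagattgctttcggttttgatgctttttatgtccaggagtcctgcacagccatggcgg

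The Casp12 window held the GAS letters on 2 occasions, as TTCTGGGAA beginning 102 and 36 bases before the start, and the antioxidant letters once, as TGACACAGC beginning 58 bases before it. Of 32851 RefSeq promoter windows of this length, 8.3% held a GAS match and 12.4% an antioxidant match. The Casp4 window held 5 NF-kB matches, of which 3 overlapped each other at 93 to 91 bases before the start and the others began 39 and 14 bases before it, and Casp1 held 1 match, 158 bases before its start. NF-kB letters occurred in 50.8% of all windows. Ripk1 and Fas also held GAS and NF-kB letters. Windows were found for 9 of the 10 genes, all except Gsdmd. The windows of Mlkl, Pycard, Ripk3 and Casp8 held none of the 6 motifs. The interferon-stimulated letters, present in 3.44% of all windows, occurred once among the 10 genes, at the second of the RefSeq starts of Ripk1, and the last 2 motifs, with shares of 0.676% and 3.97%, not at all. A match describes the letters only, and an absent match says nothing about the factor.

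Casp12 moved most of the 10. It had 3, 6 and 20 counts in cont., 285, 163 and 108 in Atg7-KO and 35, 25 and 30 in S351A, which gave 1.91, 2.11 and 1.79 CPM, 66.1, 58.5 and 49.4 CPM, and 40.2, 31.0 and 37.0 CPM. The 3 groups did not overlap, with cont. lowest, S351A in between and Atg7-KO highest. The first cont. library was at the floor of 3 counts and the other cont. libraries above it. The level was 30.2-fold higher in Atg7-KO than in cont. (log2 fold change 4.92, SE 0.25, interval 4.37 to 5.47, adjusted p = 4.2e-07), which placed it at rank 134 of 11199 genes by size of change. In S351A it was 18.8-fold higher (4.23, SE 0.27, interval 3.64 to 4.82, adjusted p = 2.94e-06), at rank 170.

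Casp4, the lipopolysaccharide-activated caspase of the non-canonical inflammasome, followed. Its counts were 6, 14 and 26 in cont., 171, 96 and 52 in Atg7-KO and 29, 31 and 11 in S351A. This corresponded to 3.81, 4.93 and 2.33 CPM, 39.7, 34.5 and 23.8 CPM, and 33.3, 38.5 and 13.6 CPM. The S351A livers overlapped with Atg7-KO except for the third, which was the lowest of the 6 and still above all cont. livers. The rise was 9.87-fold in Atg7-KO (log2 fold change 3.30, SE 0.40, interval 2.44 to 4.17, adjusted p = 6.58e-05) and 8.54-fold in S351A (SE 0.44, interval 2.15 to 4.04, adjusted p = 0.000393).

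Casp1, the caspase that matures the cytokines of the canonical inflammasome, rose least of the 3 neighbours. It had 10, 25 and 45 counts in cont., 70, 65 and 42 in Atg7-KO and 17, 13 and 19 in S351A, or 6.36, 8.80 and 4.03 CPM, 16.2, 23.3 and 19.2 CPM, and 19.5, 16.1 and 23.4 CPM. The mutant groups lay on top of each other and above cont. The fold change was 3.25 in Atg7-KO (log2 1.70, SE 0.32, interval 1.01 to 2.39, adjusted p = 0.00128) and 3.28 in S351A (SE 0.36, interval 0.94 to 2.49, adjusted p = 0.00408).

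The other protein-coding genes within 1500 kb of Casp12 were looked at after the caspase values were known, and none of the 3 that could be tested was called higher in Atg7-KO or S351A. Aasdhppt, Kbtbd3 and Msantd4, about 1 Mb upstream, had log2 fold changes of -1.24 (adjusted p = 0.000829), -0.91 (adjusted p = 0.0238) and -0.14 (adjusted p = 0.739) in Atg7-KO, so that the first 2 fell there. In S351A they had -1.77 (adjusted p = 0.000596), -0.69 (adjusted p = 0.162) and -0.40 (adjusted p = 0.394), so that Aasdhppt fell. Gria4, Pdgfd and Ddi1 had at most 2 counts in any library and were not tested.

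**Figure D2:**
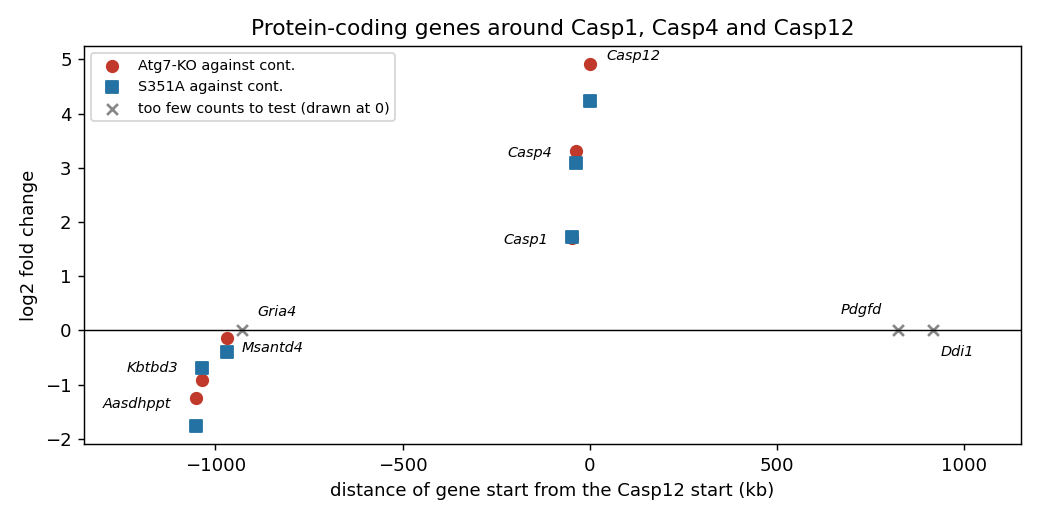
Log2 fold change of each protein-coding gene around the caspase cluster (vertical axis) against the distance of its start from that of Casp12 in kb (horizontal axis), for Atg7-KO against cont. (circles) and S351A against cont. (squares), with crosses for genes too low to test, drawn at 0. Casp1, Casp4 and Casp12 stand at 1.70, 3.30 and 4.92 in Atg7-KO, and the tested neighbours are at or below -0.14.

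Pycard (chromosome 7, 127989708 to 127993867, - strand), the adaptor that links inflammasome sensors to caspase-1, rose from a very low level. Its counts were 2, 8 and 20 in cont., 40, 13 and 20 in Atg7-KO and 6, 8 and 6 in S351A, which gave 1.27, 2.82 and 1.79 CPM, 9.28, 4.67 and 9.15 CPM, and 6.89, 9.93 and 7.40 CPM. No mutant library overlapped with cont., a separation that 26.7% of all genes showed in Atg7-KO and 19.6% in S351A. The second Atg7-KO library was the lowest of the mutants, and the first cont. library, at 2 counts, was below the floor of 3. The increase was 3.84-fold in Atg7-KO (log2 1.94, SE 0.41, interval 1.05 to 2.84, adjusted p = 0.00283) and 4.01-fold in S351A (log2 2.00, SE 0.49, interval 0.94 to 3.06, adjusted p = 0.00909). Without the second S351A library, which had the highest level, the S351A call was lost (adjusted p = 0.0526). Some 10.9% of its 75-base windows occur in another gene and an unspliced transcript overlaps it on the other strand, so part of the counts may belong elsewhere.

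Gsdmd (chromosome 15, 75862327 to 75867408, + strand), the pore-forming substrate of caspase-1 and of the Casp4 product, was already present in cont. It measured 48.9, 48.6 and 52.6 CPM in cont., 48.0, 62.8 and 63.1 in Atg7-KO and 42.5, 79.5 and 76.5 in S351A. In each mutant group, the first library was below cont. and the other two above. Neither difference passed the test (log2 fold change 0.21, SE 0.23, interval -0.29 to 0.70, adjusted p = 0.515 in Atg7-KO; 0.40, SE 0.24, interval -0.13 to 0.92, adjusted p = 0.24 in S351A).

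The choice of scaling bears on the genes that were not called. When counts were divided by total library size alone, the median over all genes moved up on the log2 scale by 0.55 in Atg7-KO and 0.50 in S351A. Calls over all genes then split into 4312 higher and 796 lower in Atg7-KO, in place of 2226 and 2027. On that scale Ripk1, Ripk3 and Gsdmd joined the 5 genes in Atg7-KO, making 8 of 10, and Ripk3 and Gsdmd joined them in S351A, making 7 of 10, while Casp8 and Fas had positive values without a call. The 5 genes were called under both scalings. The fall of Atg7 was not called on that scale (-0.20, adjusted p = 0.855, and -0.59, adjusted p = 0.0639), and of the partners described below Cflar, Il18 and Il1r1 in Atg7-KO and Chuk, Ppm1b and Nlrp6 in S351A lost their calls as lower, with the sign kept.

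**Figure D3:**
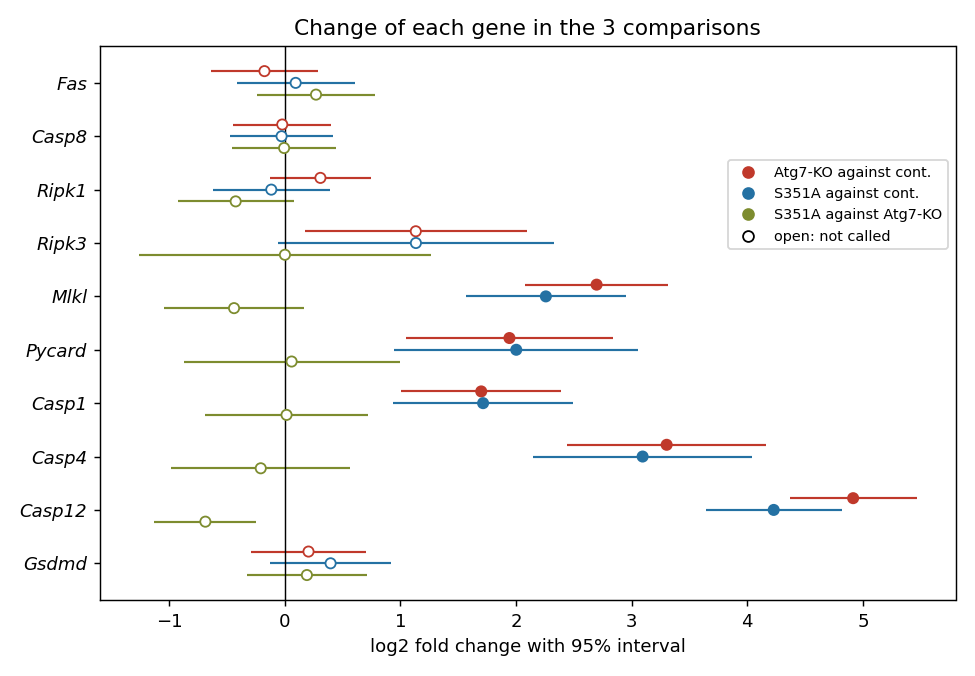
Log2 fold change (horizontal axis) with its 95% interval for each gene in the 3 comparisons, where filled points were called and open points were not. Mlkl, Pycard, Casp1, Casp4 and Casp12 have filled points for both comparisons with cont., from 1.70 for Casp1 to 4.92 for Casp12, and in S351A against Atg7-KO the interval of Casp12 lies below 0.

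Setting S351A directly against Atg7-KO tested whether the p62 allele changed these genes in livers without hepatocyte Atg7. None of the 10 was called by edgeR, DESeq2 or limma-voom, while 1 gene, 0.00893% of the 11199 tested, was called over the whole table by edgeR. At an unadjusted p under 0.05, 1 of the 10 stood out, and 6.6% of all genes did. This was Casp12, which was lower in S351A by 0.69 on the log2 scale (SE 0.20, interval -1.13 to -0.25, unadjusted p = 0.00534, adjusted p = 0.549). All 3 S351A libraries lay below all 3 Atg7-KO libraries, as did those of 9.23% of all genes, and its adjusted p was between 0.237 and 1 over 19 alternatives.

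For the other called genes the difference between S351A and Atg7-KO was within wide intervals. It was -0.44 for Mlkl (interval -1.04 to 0.16, adjusted p = 0.845), -0.21 for Casp4 (interval -0.98 to 0.57, adjusted p = 0.95), 0.02 for Casp1 (interval -0.69 to 0.72, adjusted p = 0.997) and 0.06 for Pycard (interval -0.87 to 0.99, adjusted p = 0.996). A change of 1.5-fold in either direction lies inside the intervals of Casp1 and Pycard, so these data do not show that the groups were alike. Among the uncalled genes, Ripk1 was lower by 0.43 (interval -0.93 to 0.08, adjusted p = 0.833), Ripk3 was undecided (0.00, interval -1.26 to 1.26), and Casp8 had the narrowest interval (-0.01, -0.46 to 0.44). Gsdmd and Fas had differences of 0.19 (interval -0.33 to 0.71) and 0.27 (interval -0.24 to 0.78).

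Levels can be compared between genes only per kilobase of exon, taken here as the union of all annotated exons of a gene. This length was 3800 bases for Pycard, 8344 for Ripk1 and 1497 for Casp1. Where it exceeds the transcript present in liver, the level comes out too low, so the order below depends on it. In cont. livers, Gsdmd (21.1 ± 0.93 CPM per kb, SD, n = 3) and Casp8 (20.5 ± 4.75) led, Fas followed at 14.7 ± 2.38, and these 3 stood well above the rest. Then came Casp1 (4.27 ± 1.59), Ripk1 (3.05 ± 0.43), Mlkl (2.37 ± 0.48), Casp4 (0.995 ± 0.352), Ripk3 (0.985 ± 0.415), Pycard (0.516 ± 0.207) and Casp12 (0.505 ± 0.042). The library values of neighbours in this order overlapped, except between Casp8 and Fas, between Fas and Casp1 and between Mlkl and Casp4. In Atg7-KO livers Gsdmd (24.4 ± 3.64) and Casp8 (19.98 ± 1.19) still led. Casp12 had moved from the last place to the third (15.1 ± 2.18), level with Mlkl (15.01 ± 0.26), Casp1 (13.1 ± 2.38) and Fas (12.8 ± 2.12), and ahead of Casp4 (8.80 ± 2.18). The values of these 4 overlapped and lay apart from those of Casp8 above and Casp4 below. Ripk1, Ripk3 and Pycard closed the order at 3.83 ± 0.29, 2.27 ± 0.69 and 2.03 ± 0.69. In S351A livers Casp12 was sixth at 9.40 ± 1.21, between Mlkl (11.1 ± 4.31) and Casp4 (7.67 ± 3.55), and its values overlapped with both. There the breaks in the order lay between Casp8 and Fas and between Casp4 and Ripk1.

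The surrounding machinery was read from 6 lists that hold 101 other cell death genes, of which 82 were tested. In Atg7-KO, 28 of them rose and 12 fell against cont., which is 48.8% called beside 38% of all genes. In S351A, 22 rose and 8 fell, which is 36.6% beside 28.6%. The lists were also chosen with earlier results of these data known. Between S351A and Atg7-KO none was called in the edgeR fit of all 9 libraries or by limma-voom, and 4 had an unadjusted p under 0.05. Panx1 was called there by DESeq2 (adjusted p = 0.00358), by edgeR without the filter on low counts (adjusted p = 0.000243) and by edgeR with the 6 compared libraries alone (adjusted p = 0.0456).

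Among death receptors and their ligands, 6 of 11 tested genes rose in both groups and none fell. Tnfrsf10b, the mouse TRAIL receptor, lay at 1.91, 1.41 and 0.717 CPM in cont., at 13.0, 17.6 and 18.8 in Atg7-KO and at 3.45, 21.1 and 9.87 in S351A. Its log2 fold changes were 3.90 (adjusted p = 0.000179) and 3.38 (adjusted p = 0.00212). The counts behind them were 3, 4 and 8 in cont. and 3, 17 and 8 in S351A, with the first library of each at the floor. Tnf, the cytokine that can start the RIPK1 pathway, rose from a mean of 0.626 CPM to 3.79 CPM in Atg7-KO (log2 fold change 2.57, adjusted p = 0.00221) and 5.60 CPM in S351A (3.17, adjusted p = 0.00241), on at most 16 counts in a library. Ltb, a lymphotoxin subunit, rose too (2.89, adjusted p = 0.00544, and 3.47, adjusted p = 0.00512), with 12, 12 and 1 counts in S351A, so that 1 of these livers did not lie above cont. Tnfrsf1a, the main receptor for TNF, did not pass the test (0.58, adjusted p = 0.0647, and 0.35, adjusted p = 0.306), although in Atg7-KO it was called by limma-voom (adjusted p = 0.0393), with at least 10 counts in every library (adjusted p = 0.0352) and without the third cont. library (0.81, adjusted p = 0.0153), and in both groups with total library size or without the 20 most abundant genes (adjusted p between 0.00121 and 0.0259). Fasl, the ligand of FAS, had 0 to 3 counts in every library and was not tested.

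In the complex below the receptors, most genes did not pass the test: of 21 tested, 2 rose and 2 fell in Atg7-KO, and 2 rose and 1 fell in S351A. Fadd, the adaptor for caspase-8, had log2 fold changes of 0.02 (adjusted p = 0.969) and 0.37 (adjusted p = 0.516). Cflar encodes cFLIP, which restrains caspase-8, and went from a mean of 119.8 CPM to 65.7 CPM in Atg7-KO (-0.86, adjusted p = 0.0117). Its level in S351A was 74.0 CPM, not called (-0.68, adjusted p = 0.0511), though called with no filter (adjusted p = 0.0221) and without any one of 3 libraries, cont. 2, cont. 3 or S351A 1 (adjusted p between 0.0327 and 0.0427). Tnfaip3, which encodes the ubiquitin-editing enzyme A20 and limits NF-kB signalling and necroptosis, rose in both (2.17, adjusted p = 0.00109, and 2.46, adjusted p = 0.00227). Its counts were low, at 2, 3 and 14 in cont. and 6, 7 and 4 in S351A. Chuk, an IKK kinase subunit, fell by 1.78 (adjusted p = 0.000569) and 1.26 (adjusted p = 0.00778).

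Of the listed necroptosis inputs and regulators, 5 were tested. Zbp1, the nucleic acid sensor that engages RIPK3 directly, lay at 9.54, 19.7 and 7.26 CPM in cont., at 76.1, 75.02 and 81.9 in Atg7-KO and at 25.3, 91.9 and 96.3 in S351A. It rose in both groups (2.72, adjusted p = 0.000558, and 2.59, adjusted p = 0.00177), and the first S351A library was by far the lowest of the mutants, as it was for Mlkl. Ppm1b, a phosphatase that restrains RIPK3, fell in both (-1.16, adjusted p = 0.000311, and -0.82, adjusted p = 0.00533). The others were not called.

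Upstream of Pycard and Casp1, 12 of 19 listed inflammasome sensors and regulators were tested, of which 7 rose and 2 fell in Atg7-KO, and 6 rose and 1 fell in S351A. Nlrp3, the best known sensor, had at most 11 counts in a library and was not tested. Aim2, a sensor of cytosolic DNA, had log2 fold changes of 1.41 (adjusted p = 0.0513) and 0.93 (adjusted p = 0.334), and was called in Atg7-KO by DESeq2 (adjusted p = 0.0334), with RLE factors (0.0473), with no filter (0.0282), with total library size (0.00756), without the 20 most abundant genes (0.0123) and without the third cont. library (2.43, adjusted p = 0.0133). Panx1, a channel that releases ATP and is itself cut by caspases, had 1, 2 and 3 counts in cont., 119, 101 and 73 in Atg7-KO and 9, 6 and 3 in S351A. With pooled counts per scaled total, this was a ratio to cont. of 82.0 in Atg7-KO (95% counting interval 37.2 to 225) and of 18.8 in S351A (7.15 to 57.8). Without the third cont. library, the deepest and the one with the lowest level of Panx1, which was left out after the values were seen, the ratios were 46.5 (15.7 to 227) and 10.7 (3.11 to 56.5). Between S351A and Atg7-KO its fitted log2 difference was -2.16, with an adjusted p of 0.169 by edgeR with all libraries, 0.00358 by DESeq2 and 0.0456 when the 6 libraries were fitted alone. Nlrp6, a sensor found mostly in epithelia, fell in both groups (-1.91, adjusted p = 0.000746, and -1.37, adjusted p = 0.0079).

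Downstream of the caspases are their cytokine substrates, of which Il18 alone had enough counts to test. Il1b had between 1 and 46 counts in a library, at 1.06 to 4.31 CPM, with at most 2 in an S351A library, and was not tested. Il18 was lower in Atg7-KO (-1.00, adjusted p = 0.0219), a call that was lost with thinning (adjusted p = 0.245) and without the second cont. library or any Atg7-KO library (adjusted p between 0.0591 and 0.085). It did not pass in S351A (-0.91, adjusted p = 0.0829), except with no filter (adjusted p = 0.0482) or without the first cont. library (-1.12, adjusted p = 0.0306). Il1r1, the receptor, was lower in Atg7-KO (-1.12, adjusted p = 0.0449), a call lost with limma-voom, thinning or at least 10 counts in every library and without cont. library 2 or 3 or any Atg7-KO library (adjusted p between 0.0597 and 0.131). It was not called in S351A (-0.70, adjusted p = 0.245), except with no filter (adjusted p = 0.0438) or without the third S351A library (-1.48, adjusted p = 0.0198). Il1rn, which encodes the receptor antagonist, rose in both (3.19, adjusted p = 0.000155, and adjusted p = 0.00108 in S351A, where its mean was 11.3 CPM against 1.63 CPM in cont.). It had 2, 8 and 9 counts in cont. Gsdma, Gsdmc and Dfna5, the other gasdermins listed, had too few counts to test.

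Among the 27 tested genes of the apoptotic caspases and the mitochondrial pathway, 11 rose and 5 fell in Atg7-KO, and 6 rose and 5 fell in S351A. Bcl2a1b, an anti-apoptotic BCL2 relative expressed in leukocytes whose near-identical copies can share reads, had the largest rise of this list (4.23, adjusted p = 2.56e-05, and 3.93, adjusted p = 0.000224). It started from 0, 2 and 8 counts in cont. Endog, a mitochondrial nuclease, had the largest fall (-1.73, adjusted p = 0.00029, and -2.01, adjusted p = 0.000689).

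**Figure D4:**
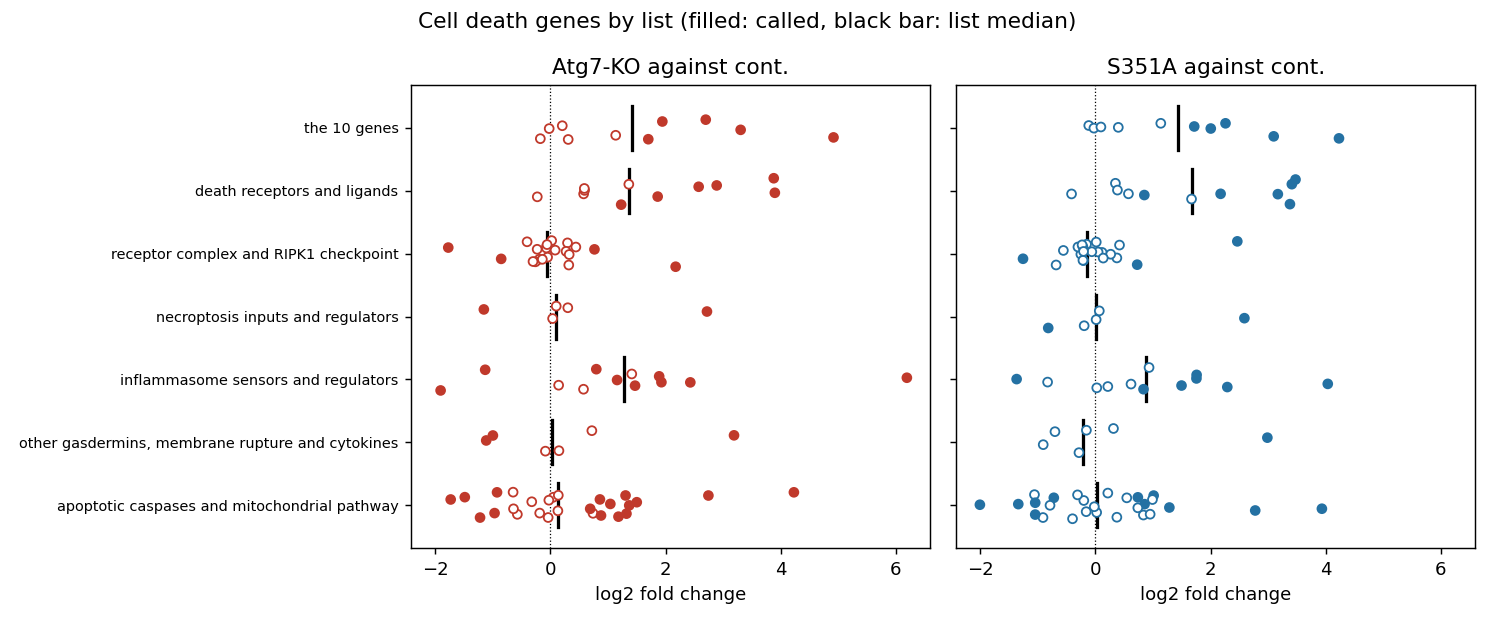
Log2 fold change (horizontal axis) of the 10 genes and of each tested gene of the 6 cell death lists (rows), in Atg7-KO against cont. (left) and S351A against cont. (right), with called genes filled and a black bar at each list's median. The median of the 10 genes is 1.42 on both sides, and the receptor complex list is centred near 0, at -0.06 and -0.16.

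Markers of several cell types moved with the 5 called genes. Summed macrophage and monocyte markers (16 genes) ranged from 259 to 415 CPM in cont., 517 to 661 in Atg7-KO and 426 to 470 in S351A. Of 15 tested, 10 rose in Atg7-KO and 8 in S351A, and Timd4, a marker of resident Kupffer cells, fell in Atg7-KO. Gpnmb was at 0 in every cont. library. Stellate cell and matrix markers (9 genes) summed to 293 to 596 CPM in cont., against 1331 to 1791 CPM in Atg7-KO and 1204 to 1728 CPM in S351A, with 6 of 9 called higher in both. Cholangiocyte and ductular markers (7 genes) went from 74.7 to 125 CPM to 873 to 1274 CPM and 789 to 1273 CPM, and all 7 rose in both groups. The general leukocyte marker Ptprc lay at 2.54 to 15.1 CPM in cont., 33.7 to 47.1 in Atg7-KO and 19.5 to 27.3 in S351A.

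Hepatocyte markers (10 genes) summed to less, at 55850 to 114900 CPM in cont., 35420 to 41800 in Atg7-KO and 33830 to 47550 in S351A, and 8 of 10 fell in both groups, although this sum remained by far the largest of the lists, as the label liver requires. Markers of T and NK cells, neutrophils and dendritic cells were at 4.93 to 20.8 CPM in sum in cont. and 14.8 to 50.9 CPM in the mutant groups, and 9 of 10, 5 of 6 and 3 of 6 of them were too low to test. Of those tested, Cd8a of the T and NK cell list, Csf3r of the neutrophil list and Xcr1 and Siglech of the dendritic cell list were called higher in both mutant groups, Cd8a by 18.7-fold and 17.7-fold. Of 8 endothelial markers, 1 was called higher and 4 lower in Atg7-KO, and 1 higher and 1 lower in S351A, and their sums overlapped between groups, at 126 to 229 CPM in cont., 141 to 172 in Atg7-KO and 121 to 164 in S351A. B and plasma cell markers had sums of 8.60 to 14.1 CPM in cont. and 8.04 to 18.8 CPM over the mutant groups, and erythroid markers had sums of 322 to 899 CPM in cont. and at most 217 CPM in the mutant groups. The part of these shifts in the rise of the 5 genes was not tested.

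The rises can be set beside those of the marker sums. The macrophage sum was 1.75-fold higher in Atg7-KO and 1.32-fold in S351A, the stellate sum 3.6-fold and 3.2-fold, and the ductular sum 10.2-fold and 9.31-fold. The macrophage sum weights its genes by their level, and Clec4f, a Kupffer cell lectin that was not called (0.893-fold in Atg7-KO), made up 143 of 335 CPM in cont. Other genes of that list rose by more than the sum in Atg7-KO, C1qb by 3.94-fold, Ccr2 by 9.18-fold, Itgam by 10.8-fold and Trem2 by 21.4-fold. Gpnmb rose from 0 counts in every cont. library to 16, 16 and 14 in Atg7-KO (adjusted p = 0.000412), so that no fold can be set beside that of Casp12. A ratio to the sum is therefore not a ratio to each of these markers. The other sums also join unequal changes, as in Atg7-KO Col1a1 of the stellate list rose by 21.8-fold and Dcn by 2.36-fold, and Spp1 of the ductular list by 20.6-fold and Krt7 by 6.24-fold. Cftr had 0, 0 and 2 counts in cont., below the floor of 3. Its fitted folds of 47.4 in Atg7-KO and 22.2 in S351A were both larger than those of Casp12. Trem2, with 1, 4 and 5 counts in cont., rose 22.7-fold in S351A, where Casp12 rose 18.8-fold. The log2 intervals of Cftr (4.34 to 6.79 and 2.85 to 6.09) and of Trem2 in S351A (3.54 to 5.47) contain the Casp12 values. They do not settle which gene rose more. Divided by the macrophage sum in each library, the mean level of Casp12 was 17.0-fold higher in Atg7-KO, that of Casp4 5.12-fold, Mlkl 3.6-fold, Pycard 2.33-fold and Casp1 1.74-fold, and all Atg7-KO and S351A libraries lay above all cont. libraries for the 5 genes. In S351A these ratios were 13.7, 5.86, 3.48, 3.23 and 2.30. Divided by the stellate sum, Casp12 was 7.95-fold, Casp4 2.53-fold and Mlkl 1.72-fold higher in Atg7-KO, with every library above every cont. library, while Pycard (1.03) and Casp1 (0.886) overlapped with cont. In S351A, Casp12 (5.54) and Casp4 (2.39) again lay above cont. in every library, whereas Mlkl (1.51), Pycard (1.28) and Casp1 (1.00) overlapped with cont., and 1 library had a ratio for Mlkl below that of every cont. library. Relative to the ductular sum, Casp12 alone of the 5 was higher in Atg7-KO (2.81-fold) and in S351A (1.93-fold), with every mutant library above every cont. library, and the other 4 lay between 0.285 and 0.801 of their cont. ratio in Atg7-KO. In S351A those 4 lay between 0.312 and 0.777 of it.

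**Figure D5:**
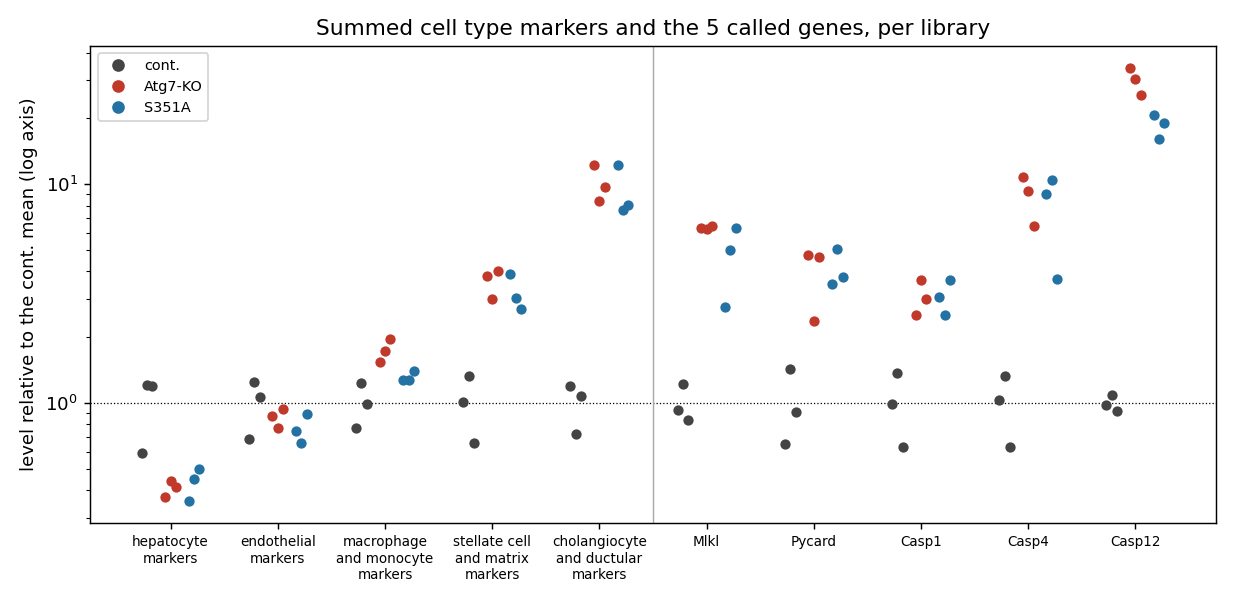
Summed CPM of 5 marker lists (left of the line) and CPM of the 5 called genes (right of it) in each library, relative to the cont. mean (log axis), with 1 point per liver. The ductular sums average 10.2 and 9.31 times cont. in Atg7-KO and S351A, above the means of Mlkl, Pycard, Casp1 and Casp4. The mean of Casp12 lies above these 5 sums but not above each single marker. Cftr in both groups and Trem2 in S351A had larger fitted folds, from few cont. counts and with intervals that include the Casp12 value.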

How the data were processed

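The deposited table holds expected counts per gene, which the authors estimated with RSEM after trimming 75-base single-end reads with Trim Galore and mapping them to mm10 with STAR. Tool versions, the annotation and the strand setting are not given in the sources used here, and the labels and the study's methods name different kits for RNA extraction. Between 4.4% and 7.75% of the values per library were not whole, and all were rounded. Groups and replicate numbers came from sample titles. The genotype entry of S351A replicates 2 and 3 names another p62 position than the title, and the titles were followed. Livers were 3 separate biological replicates per group by the study's methods.

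The filterByExpr function kept 11199 genes (min.count 10, min.total.count 15). All 9 libraries were fitted with TMM scaling by edgeR 4.0.16 (R 4.3.3) with 1 term per group, and pairs of groups were compared by its quasi-likelihood F test with Benjamini-Hochberg adjustment over the 11199 genes. SE and 95% intervals of log2 fold changes are those implied by that test. The thresholds are those the study used with DESeq2. Floors and counting intervals cover counting error only. Positions and exon lengths came from GENCODE release 21 for mouse on mm10, promoter windows from RefSeq. The script was tested on simulated counts. The alternatives were RLE factors, total library size, totals that leave out the 20 most abundant genes, 2 other filters, DESeq2 1.42.0, limma-voom (limma 3.58.1), the 6 compared libraries alone, replicate number or sex as a covariate, thinning to the smallest library, other thresholds, and leaving out each library in turn.

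The text names all 10 genes, Atg7, 12 listed partners, of which 2 are not reported here, and, per list, comparison and direction, the called gene that changed most, if the higher group averaged 5 CPM or more. The genes and lists were chosen with earlier results of these data known. Sqstm1 itself had log2 fold changes of 0.38 in Atg7-KO (adjusted p = 0.169) and -0.05 in S351A (adjusted p = 0.875).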

Additional observations from a re-analysis of the deposited data

How the results depend on the processing

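Of the log2 fold changes of the 10 genes, 516 values under alternatives kept direction and call, 12 gained a call, 1 lost it (Pycard in S351A) and 48 changed sign, all of them differences that were not called. Mlkl, Casp1, Casp4 and Casp12 kept their calls against cont. in every alternative that tested them. Of the 10 genes, those called in Atg7-KO against cont. numbered 8 with total library size or without the 20 most abundant genes, and 1 of 5 tested, Casp1, with at least 10 counts in every library, and that filter also left 1 in S351A against cont., since it removes low cont. genes. With it, 19 and 14 pathway genes were called against cont. in Atg7-KO and S351A. In Atg7-KO thinning left 26 pathway genes called. In S351A, 18 were called when the 6 libraries were fitted alone and 17 at adjusted p under 0.01. With no filter, DESeq2 or the 6 libraries alone, 1 pathway gene, Panx1, was called between S351A and Atg7-KO. Without the 20 most abundant genes, the median over all genes moved up by 0.44 and 0.40, and calls in Atg7-KO were 3795 higher and 972 lower. For S351A against cont., total library size gave 3541 higher and 510 lower in place of 1748 and 1460. Those calls over all genes numbered 1206 and 892 without the first S351A library and 1284 and 887 without the second. They numbered 1911 and 1650 without the third, so the shares over all genes depend on single libraries. Over all genes, DESeq2 called 21 higher and 18 lower between S351A and Atg7-KO, and the unfiltered fit 61 and 37.

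With a replicate block, 5 of the 10 genes were called in Atg7-KO and 5 in S351A against cont. and 0 between S351A and Atg7-KO, and it changed none of their calls. Of the partners it called Tnfrsf1a (adjusted p = 0.0327) and Aim2 (0.0289) higher in Atg7-KO and Cflar (0.0278) lower in S351A. Over all genes it gave 2297 higher and 2016 lower in Atg7-KO, and 1863 and 1543 in S351A. Same-numbered libraries correlated with r of -0.026 to 0.314 after removal of group means, 5 of 9 pairs above 0.1, and other pairs with -0.278 to 0.209, and 13 of 18 best matches shared the number, a hint from the data only, so the numbers were not taken to pair the livers. By Xist and Y-linked genes, all libraries numbered 1 were male and all numbered 2 female. Number and sex thus largely ran together, and which of them the correlations follow was not tested. Adding sex changed no call of the 10 genes.

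Signs changed as follows. With total library size, Casp8 and Fas in Atg7-KO were at 0.51 and 0.36, Ripk1 and Casp8 in S351A at 0.39 and 0.45, and between S351A and Atg7-KO Ripk3 and Casp1 at -0.055 and -0.029. Without the 20 most abundant genes these 6 were at 0.41, 0.25, 0.28, 0.36, -0.042 and -0.018. With at least 10 counts in every library, Casp8 was at 0.067 in Atg7-KO and 0.041 in S351A, and with the 6 libraries alone at 0.024, 0.04 and, between S351A and Atg7-KO, 0.008. With no filter, Fas in S351A was at -0.008 and, between S351A and Atg7-KO, Ripk3 and Casp1 were at -0.052 and -0.041. Ripk3 there was at -0.035 with the replicate block and -0.033 with sex. Casp8 was at 0.002 with sex in Atg7-KO and 0.006 with limma-voom between S351A and Atg7-KO. Thinning gave 0.019 for Ripk1 in S351A and -0.034 for Casp1 between S351A and Atg7-KO. Leaving out 1 library in turn gave -0.15 to 0.15 for Casp8 in Atg7-KO and -0.16 to 0.14 in S351A, -0.33 to 0.014 for Ripk1 and -0.049 to 0.19 for Fas in S351A. Between S351A and Atg7-KO it gave -0.55 to 0.24 for Ripk3, -0.13 to 0.16 for Casp1, -0.48 to 0.12 for Casp4, -0.06 to 0.023 for Casp8 and -0.20 to 0.23 for Pycard. The cause of these shifts was not tested. Depth limits what genes of few counts can show, with a floor of 3 counts that is 3.45 to 3.73 CPM in the S351A libraries.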
